A study of Mus musculus with 7 samples.

Results

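The genes described here encode the nuclear-coded subunits of the mitochondrial respiratory chain and of ATP synthase in mouse leukemia cells. They were chosen by symbol alone, as every measured gene whose symbol starts with Nduf and a subunit letter, with Sdh and a subunit letter, with Uqcr, with Cox and a subunit number of the terminal oxidase, or with Atp5. This gave 81 of 18193 genes with a probe set of their own. They were 35 genes of complex I, 4 of complex II, 8 of complex III, 17 of complex IV and 17 of complex V. Ndufa4, whose protein is found in complex IV, and its paralogue Ndufa4l2 were counted with complex I, for which they are named. Where a gene had several probe sets, the one with the highest mean over the 7 arrays stood for it.

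The series set leukemic cells from terminally ill ICN1 mice against those from terminally ill TEL-JAK2 mice, all of strain C57Bl/6. ICN1 is the intracellular part of NOTCH1, which signals without ligand, and its 3 arrays held suspensions made from bone marrow. TEL-JAK2 is a fusion that keeps the kinase JAK2 active, and its 4 arrays held suspensions made from thymus. Neither the age of the mice nor the way each oncogene was introduced is given in the sources used here, and the labels mention no sorting of the cells. Since each oncogene was paired with its own tissue, oncogene and tissue cannot be told apart in any value below. Differences are log2 expression in ICN1 minus TEL-JAK2, with the standard error (SE) of the limma fit, from 3 ICN1 arrays and 4 TEL-JAK2 arrays. A gene is called where its adjusted p, corrected by the Benjamini-Hochberg method over all 18193 genes, is under 0.05.

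The respiratory chain passes electrons from NADH through complex I, or from succinate through complex II, to coenzyme Q, and then through complex III, cytochrome c and complex IV to oxygen. Complexes I, III and IV pump protons across the inner mitochondrial membrane, and ATP synthase, also named complex V, uses the returning protons to make ATP. The subunits are made from many nuclear genes and a few mitochondrial ones, and some complex IV subunits have a second isoform that is restricted to muscle, lung or testis. In bulk samples such as these, fewer cells of a type and less RNA per cell cannot be told apart, and the deposited scaling removes any difference in total RNA.

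Arrays of a group were alike, with Pearson's r between 0.973 and 0.982 within ICN1 and between 0.975 and 0.989 within TEL-JAK2 over all probe sets. ICN1 replicates 1 and 2 held both Xist (11.51 and 11.78) and the Y-linked Eif2s3y (8.93 and 9.41), whereas ICN1 replicate 3 had Xist at 12.09 and Eif2s3y at 3.25. TEL-JAK2 replicate 4 had Xist at 5.19 and Eif2s3y at 10.23, against Xist at 13.25, 13.12 and 13.36 and Eif2s3y at 3.21, 3.18 and 3.29 in TEL-JAK2 replicates 1 to 3. The sources used here do not say whether mice were pooled or transplanted. The mean level of 11 T-lineage genes was 11.08, 11.63 and 11.48 in the ICN1 arrays and 12.05, 11.92, 12.14 and 11.79 in the TEL-JAK2 arrays, so both groups carried the RNA of T-lineage cells, with 7 of the 11 genes called lower and 1, Ptcra, called higher in ICN1. With 1 array left out at a time, 4 to 7 of them were lower, and Ptcra lost its call in 4 of the 7 fits (adjusted p up to 0.0828). Among them Cd3d, a chain of the T-cell receptor complex, lay between 13.08 and 13.35 in ICN1 and between 13.61 and 13.90 in TEL-JAK2. The 10 erythroid markers averaged 11.06 to 11.33 in ICN1 and 5.44 to 5.85 in TEL-JAK2, and 8 of them were called higher in ICN1, also with each array left out in turn. Markers of granulocytes (5 of 9), megakaryocytes (4 of 5) and macrophages (5 of 10) were also called higher in ICN1, where 12.2% of all genes were. These counts rested on single arrays. Granulocyte markers came to 2 without ICN1 replicate 1 or any one of the first 3 TEL-JAK2 replicates. Megakaryocyte markers came to 2 without ICN1 replicate 1 or TEL-JAK2 replicate 2 and to 1 without TEL-JAK2 replicate 1, and macrophage markers to 1 without ICN1 replicate 1 or 2, to 2 without TEL-JAK2 replicate 1 and to 3 without TEL-JAK2 replicate 3. With ICN1 replicate 3 alone the 3 counts were 3, 1 and 1. Of 8 thymic epithelial markers, 3 were called lower in ICN1, Epcam by 6.15 ± 0.48, and 1 was without any one ICN1 array or TEL-JAK2 replicate 1. Epcam averaged 10.92 in TEL-JAK2, where Aire and Foxn1, also called, were dimmer at 6.27 and 4.85. Within TEL-JAK2, Epcam was lowest in replicate 4 (9.67), where Aire was highest (6.97). Of the lists of B-lineage, dendritic and stromal markers, 1 gene of 7 was lower, none of 8 was called (1 lower at an unadjusted limma p under 0.05) and 1 of 8 was higher, each count moving by 1 to 2 genes when some single arrays were left out. The part of these other cells in the values below was not tested.

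Of the 81 respiratory chain and ATP synthase genes, 15 were called higher in ICN1, 3 were called lower and 63 did not pass the test. Over all genes, 12.2% were called higher and 11.9% lower. The 15 higher genes therefore made up 18.5% of the members, and the 3 lower ones 3.70%. Members were mostly bright, and among the 1752 other genes whose mean level lay in the top 10%, 20.9% were called higher and 23.1% lower. Beside those genes the share of higher members was not raised, and the share of lower members was small. The groups did not overlap with ICN1 above in 28 members, against 15.9% of all genes, and with ICN1 below in 11 members, against 18.4% of all genes. The median difference was 0.08 over the members and -0.04 over all genes. The sizes were small. In 73 members (90.1%) the groups differed by less than 1.5-fold, against 74.2% of all genes and 61.8% of the 1752 other genes whose mean level lay in the top 10%. A difference of at least 2-fold was found for 1 member, Cox6b2. The count of higher genes was 7 without ICN1 replicate 1, 7 without ICN1 replicate 2, 7 without TEL-JAK2 replicate 1 and 8 without TEL-JAK2 replicate 3. The count of lower genes was 1 without ICN1 replicate 1, TEL-JAK2 replicate 1 or TEL-JAK2 replicate 3. With ICN1 replicate 3 alone standing for ICN1, 3 members were higher (Cox6b2, Cox7a1 and Ndufs1) and 1 was lower (Cox7a2l), and the lone array was assumed to vary like the TEL-JAK2 arrays.

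**Figure D1:**
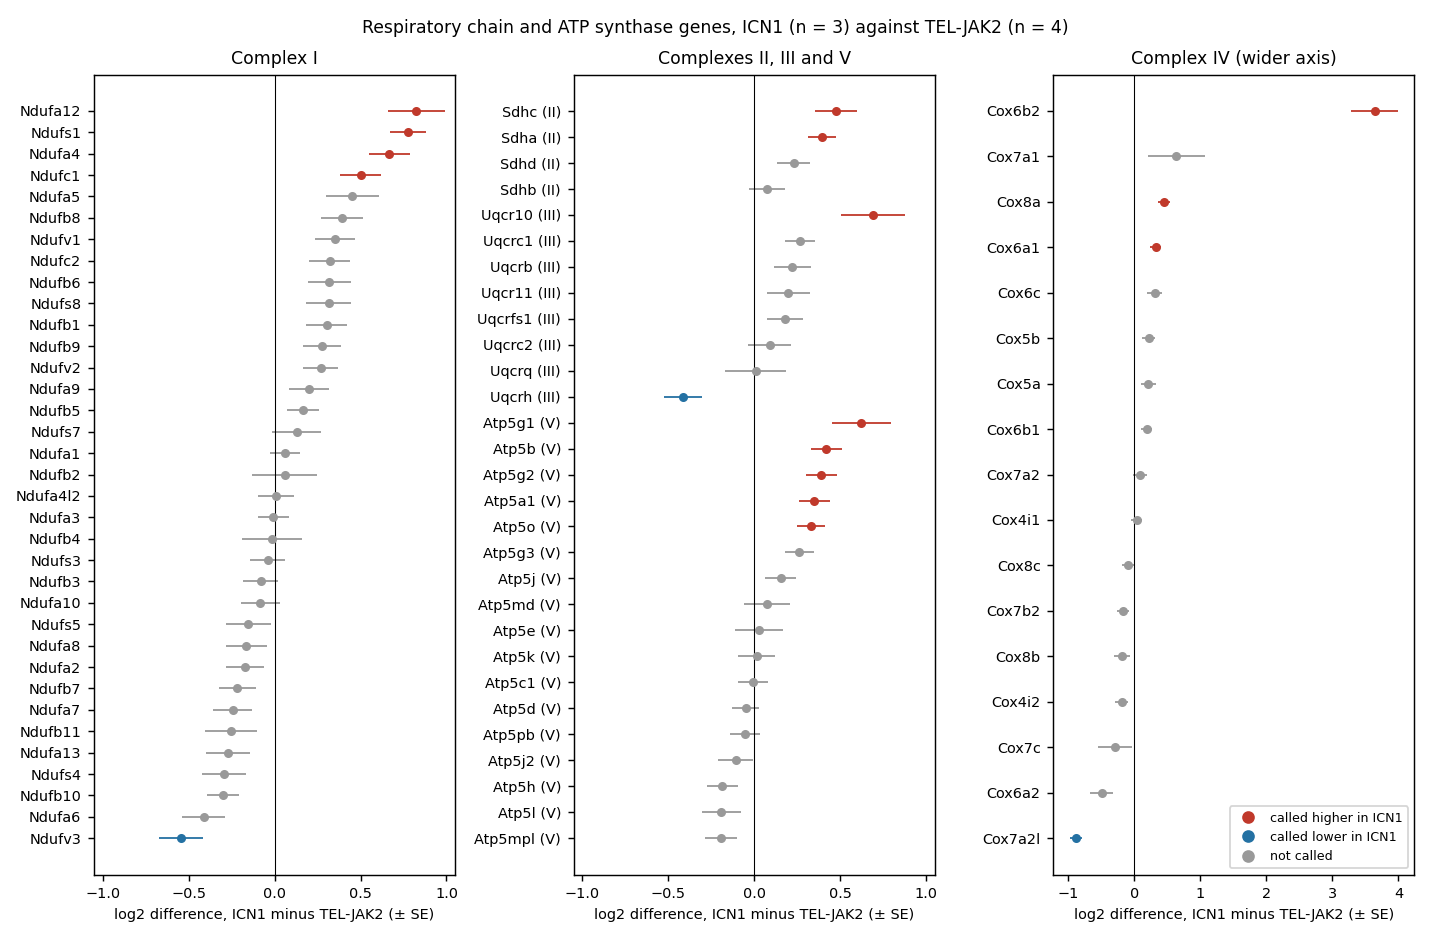
Difference of each of the 81 genes between ICN1 (n = 3) and TEL-JAK2 (n = 4) arrays on the log2 scale, with points for the difference, whiskers for its SE and 0 as no difference. Red points are the 15 genes called higher in ICN1, blue points the 3 called lower and grey points those not called. Most genes lie near 0, and Cox6b2, on the wider axis of the complex IV panel, stands apart at 3.64.

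Promoters were read from a RefSeq table (GRCm38.p6), which held 71 promoters for 66 of the members, each from 250 bases before to 50 bases after the transcript start. They are described because nuclear factors known to drive respiratory genes bind short, known motifs. The NRF1 motif GCGCANGCG, read on both strands, was present in 19 of the 71 member promoters (26.8%) and in 6.25% of all 32851 promoters. The GABPA motif CCGGAAG was present in 17 member promoters (23.9%) and in 8.86% of all, and the YY1 motif AAGATGGC in 9 (12.7%) and in 2.75%. The motif of ERRa, CAAGGTCA, was found in 4 member promoters (5.63%), against 1.56% of all. CCAAT was found in 40.8% of member promoters and 37.4% of all, and CACGTG in 9.86% and 7.15%. Member promoters had a median GC content of 58.3%, against 52.7% for all promoters, and the motifs differ in base composition. Of the 12 higher genes with a promoter in the table, 4 held an NRF1 match, namely Atp5g2, Atp5o, Cox6a1 and Sdha. A match describes the letters and is not evidence of binding. Below are the promoters of the genes with the largest difference in each direction and of 2 called genes with 3 NRF1 matches each, some of which overlap. Capitals mark CCAAT in Cox6b2 and NRF1 matches in Sdha and Cox6a1, and none of the 6 motifs occurs in the Cox7a2l window. All 4 lie on the minus strand and are written 5′ to 3′ in the direction of transcription.
Cox6b2, chr7:4753045-4753344: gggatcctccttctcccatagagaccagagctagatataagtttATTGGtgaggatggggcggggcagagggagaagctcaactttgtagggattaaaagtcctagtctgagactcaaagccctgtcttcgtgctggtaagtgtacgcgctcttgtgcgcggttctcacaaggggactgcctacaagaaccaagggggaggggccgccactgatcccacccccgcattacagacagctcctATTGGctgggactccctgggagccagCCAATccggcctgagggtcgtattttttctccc
Cox7a2l, chr17:83514284-83514583: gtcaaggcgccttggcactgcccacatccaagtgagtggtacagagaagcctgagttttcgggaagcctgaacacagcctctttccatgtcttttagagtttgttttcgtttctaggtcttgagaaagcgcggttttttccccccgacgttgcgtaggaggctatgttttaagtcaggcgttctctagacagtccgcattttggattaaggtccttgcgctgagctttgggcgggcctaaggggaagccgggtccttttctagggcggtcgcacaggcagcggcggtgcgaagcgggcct
Sdha, chr13:74350191-74350490: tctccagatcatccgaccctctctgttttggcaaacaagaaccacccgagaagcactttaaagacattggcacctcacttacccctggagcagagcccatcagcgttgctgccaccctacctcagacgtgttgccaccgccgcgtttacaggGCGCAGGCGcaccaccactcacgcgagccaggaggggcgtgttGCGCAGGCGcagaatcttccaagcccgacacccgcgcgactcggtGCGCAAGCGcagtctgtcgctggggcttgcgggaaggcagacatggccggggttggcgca
Cox6a1, chr5:115348909-115349208: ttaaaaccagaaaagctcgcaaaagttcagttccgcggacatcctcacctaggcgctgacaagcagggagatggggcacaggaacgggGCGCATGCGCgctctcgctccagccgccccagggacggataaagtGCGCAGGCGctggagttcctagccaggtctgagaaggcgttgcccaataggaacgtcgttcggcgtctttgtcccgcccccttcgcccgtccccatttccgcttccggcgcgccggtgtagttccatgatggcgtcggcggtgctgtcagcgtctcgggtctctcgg

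Complex I, the NADH dehydrogenase, had 4 of its 35 genes called higher in ICN1 (11.4%, against 12.2% of all genes) and 1 lower (2.86%, against 11.9%). Counted here by its symbol, Ndufa4 was among the 4 higher genes. At an unadjusted limma p under 0.05, 13 were higher and 3 lower, and the median difference was 0.06. The 6 measured genes of its catalytic core, Ndufs1, Ndufs3, Ndufs7, Ndufs8, Ndufv1 and Ndufv2, had a median of 0.29, and the 27 accessory genes a median of -0.01. Within the core, Ndufs1 was the gene that passed the test. It encodes the largest iron-sulfur subunit and measured 10.66, 10.61 and 10.93 in the ICN1 arrays, against 9.96, 10.02, 9.88 and 9.97 in the TEL-JAK2 arrays. All 3 ICN1 arrays lay above all 4 TEL-JAK2 arrays, and the TEL-JAK2 arrays were close together. The difference was 0.78 ± 0.11 (adjusted p = 0.00236), and it was called without each array in turn and with ICN1 replicate 3 alone (0.97). The flavin-binding subunit gene Ndufv1 differed by 0.35 ± 0.12 and its neighbour Ndufv2 by 0.27 ± 0.10, neither of them called, while Ndufs3 stood at -0.04 ± 0.10. Further probe sets gave -0.14 ± 0.15 and 0.20 ± 0.11 for Ndufv1, and -0.04 ± 0.13 and 0.09 ± 0.13 for Ndufv2. That of Ndufs7 gave -0.08 ± 0.13, those of Ndufs8 were positive, and none of these was called.

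Ndufa4 was named for complex I but its protein is found in complex IV. It measured 11.56, 11.55 and 11.70 in ICN1, against 10.96, 11.17, 10.78 and 10.84 in TEL-JAK2, with no overlap. The difference was 0.67 ± 0.12 (adjusted p = 0.00674), and it was called without each array in turn but not with ICN1 replicate 3 alone (0.77, adjusted p = 0.055). Its paralogue Ndufa4l2, known as a hypoxia-induced gene, stood at 6.14, 6.19 and 6.16 in ICN1 and at 6.16, 6.00, 6.35 and 6.12 in TEL-JAK2, a difference of 0.01 ± 0.10.

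Among the accessory genes, Ndufa12 had the largest difference. It measured 12.57, 12.44 and 12.40 in ICN1, against 11.48, 11.73, 11.35 and 12.02 in TEL-JAK2. The groups did not overlap, and TEL-JAK2 replicate 4 came nearest to ICN1. The difference was 0.83 ± 0.17 (adjusted p = 0.0115). All 3 bright probe sets of Ndufa12 gave 0.78 to 0.84, and each carries the platform's mark for possible cross-hybridization. The single unmarked one, at a mean of 6.01, gave -0.15 ± 0.24 and was not called. Ndufc1, a small membrane subunit, measured 11.40, 11.37 and 11.33 in ICN1, against 10.85, 11.08, 10.64 and 10.90 in TEL-JAK2, again without overlap (0.50 ± 0.12, adjusted p = 0.0203). Its second probe set gave 0.42 ± 0.12. Its call was lost on leaving out ICN1 replicate 1 or 2 or the array TEL-JAK2 replicate 1 (adjusted p up to 0.064).

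Ndufv3, an accessory subunit of the NADH-binding part, ran the other way. It measured 11.16, 11.30 and 10.98 in ICN1, against 11.73, 11.80, 11.78 and 11.45 in TEL-JAK2, and every ICN1 array lay below every TEL-JAK2 array. The difference was -0.54 ± 0.13 (adjusted p = 0.0199), and the call was lost on leaving out ICN1 replicate 1 or 3 or any of TEL-JAK2 replicates 1 to 3 (adjusted p up to 0.0585). None of the 11 Ndufb genes, which encode subunits of the membrane arm, was called, and their differences ranged from -0.30 ± 0.09 for Ndufb10 to 0.39 ± 0.12 for Ndufb8. At an unadjusted limma p under 0.05, 4 of them were higher and 1 lower. The uncalled genes nearest to the threshold were Ndufa6 (-0.41 ± 0.12, adjusted p = 0.0501), Ndufb10 (adjusted p = 0.0527) and Ndufb8 (adjusted p = 0.0561), named after their values were seen. The complex I genes with the brightest probe sets, Ndufb11 and Ndufa3, differed by -0.25 ± 0.15 and -0.01 ± 0.09. Ndufb4 rested on a dim probe set at 4.30 in ICN1 and 4.32 in TEL-JAK2. A pair of brighter probe sets that it shares with the near-copies Ndufb4b and Ndufb4c read 11.07 and 10.84 in ICN1, against 10.62 and 10.40 in TEL-JAK2.

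Complex II, succinate dehydrogenase, also serves the tricarboxylic acid (TCA) cycle, and its 4 genes all had positive differences, with a median of 0.31. Sdha encodes the flavoprotein that oxidizes succinate. It measured 11.98, 12.04 and 11.99 in ICN1, against 11.71, 11.59, 11.59 and 11.55 in TEL-JAK2. The ICN1 arrays lay close together and all above TEL-JAK2. The difference was 0.39 ± 0.08 (adjusted p = 0.0133) and was called without each array in turn. Its second bright probe set gave 0.59 ± 0.10. Another, at a mean of 7.23, gave -0.38 ± 0.16 and was not called, and the mean over all 4 probe sets (0.15) was not called either. The call was also lost with ICN1 replicate 3 alone (0.38, adjusted p = 0.133). Sdhc, a membrane anchor, measured 10.08, 9.88 and 9.85 in ICN1, against 9.34, 9.62, 9.28 and 9.60 in TEL-JAK2, with no overlap (0.48 ± 0.12, adjusted p = 0.0301). Its second probe set gave 0.09 ± 0.09, and its call was lost on leaving out ICN1 replicate 1 or 2 or either of TEL-JAK2 replicates 1 and 3 (adjusted p up to 0.0989). The other anchor, Sdhd, differed by 0.23 ± 0.10 and the iron-sulfur subunit Sdhb by 0.07 ± 0.10, and in both the groups overlapped.

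Complex III, the cytochrome bc1 complex, had 7 of 8 genes with a positive difference and a median of 0.19. In each direction 1 gene was called (12.5%, against 12.2% of all genes higher and 11.9% lower). Uqcr10, a small subunit, measured 11.99, 12.11 and 11.66 in ICN1, against 11.11, 11.51, 10.87 and 11.44 in TEL-JAK2. The groups did not overlap, and ICN1 replicate 3 came nearest to TEL-JAK2. The difference was 0.69 ± 0.19 (adjusted p = 0.0352). Its 2 dimmer probe sets gave 0.22 ± 0.18 and -0.28 ± 0.30. The hinge protein gene Uqcrh measured 12.42, 12.40 and 12.61 in ICN1, against 12.96, 12.95, 12.96 and 12.68 in TEL-JAK2. TEL-JAK2 replicate 4 stood below the other TEL-JAK2 arrays and just above the highest ICN1 array. The difference was -0.42 ± 0.11 (adjusted p = 0.0328), while its second probe set gave -0.10 ± 0.12. On leaving out ICN1 replicate 1 or 2 or either of TEL-JAK2 replicates 1 and 3, both genes lost their call (adjusted p up to 0.112 for Uqcr10 and 0.1 for Uqcrh), and Uqcrh lost it without TEL-JAK2 replicate 2 too. The Rieske protein gene Uqcrfs1 (0.18 ± 0.10) and the core protein genes Uqcrc1 (0.27 ± 0.09) and Uqcrc2 (0.09 ± 0.12) were not called, and neither was Uqcrb, which has the brightest probe set of the complex (0.22 ± 0.11). The second probe set of Uqcrb gave 0.61 ± 0.12 and was called higher, as was the mean of both (0.42, adjusted p = 0.0171).

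Complex IV, cytochrome c oxidase, held the largest differences in both directions, those of Cox6b2 and Cox7a2l. Cox6b2 is a restricted isoform, whereas Cox7a2l was classed apart from the subunits and was bright in both groups (11.60 in ICN1, 12.48 in TEL-JAK2). Of 17 genes, which do not include Ndufa4, 3 were called higher (17.6%, against 12.2% of all genes) and 1 lower (5.88%, against 11.9%). Cox6b2 is the isoform of subunit 6b known from testis. It measured 10.10, 9.72 and 9.47 in ICN1, against 6.60, 5.73, 6.75 and 5.41 in TEL-JAK2. Every ICN1 array lay more than 2 log2 units above every TEL-JAK2 array. The difference was 3.64 ± 0.35, or 12.5-fold (adjusted p = 0.00057), and ranked 121 among all 18193 genes in favour of ICN1. The gene had 1 probe set, and it was called in every setting that was run. The widely expressed isoform of the same subunit, Cox6b1, measured 13.05, 13.07 and 13.03 in ICN1 and 12.82, 12.96, 12.81 and 12.86 in TEL-JAK2. Its difference of 0.19 ± 0.08 was not called.

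Cox7a2l, also known as SCAF1, is a relative of subunit 7a that has been linked to supercomplexes of complexes III and IV. Neither its protein nor supercomplexes were measured here. The RNA of Cox7a2l measured 11.54, 11.50 and 11.76 in ICN1, against 12.50, 12.47, 12.46 and 12.49 in TEL-JAK2. The TEL-JAK2 arrays lay close together and well above all ICN1 arrays. The difference was -0.88 ± 0.09, a level 1.84-fold lower in ICN1 (adjusted p = 0.000861), and its further probe sets gave -0.89 ± 0.15 and -1.19 ± 0.12. It was called without each array in turn and with ICN1 replicate 3 alone (-0.72), but not against a 1.5-fold difference. Its relatives in the 7a family were not called. Cox7a2 stood at 0.08 ± 0.11, with its second probe set at -0.10 ± 0.13, and the heart and muscle isoform Cox7a1 at 0.64 ± 0.43. Cox7a1 measured 4.83, 4.00 and 5.99 in ICN1, against 3.97, 4.31, 4.71 and 4.22 in TEL-JAK2, so ICN1 replicates 1 and 3 lay above all TEL-JAK2 arrays and ICN1 replicate 2 among them. Its probe set averaged 4.58, below the median of all values, and its ICN1 SD of 0.996 was large beside the TEL-JAK2 SD. In the fit with ICN1 replicate 3 alone that spread does not enter.

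The other restricted isoforms did not differ beyond the test. Cox4i2, known from lung, was at -0.19 ± 0.10, the muscle isoforms Cox6a2 at -0.49 ± 0.17 and Cox8b at -0.19 ± 0.12, and Cox7b2 and Cox8c, known from testis, at -0.17 ± 0.09 and -0.09 ± 0.09. Cox6a2 measured 6.17, 6.19 and 6.51 in ICN1, against 6.97, 6.39, 7.0 and 6.76 in TEL-JAK2, and was called lower when TEL-JAK2 replicate 2 was left out (adjusted p = 0.0272). The probe sets of Cox7b2 (3.07 in ICN1, 3.24 in TEL-JAK2) and Cox8b (4.82 in ICN1, 5.01 in TEL-JAK2) read below the median of all values, 5.475, where folds are compressed.

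Of the 9 widely expressed complex IV genes, 2 were called, both higher in ICN1, and the median was 0.21. Cox8a, a small subunit, measured 12.31, 12.15 and 12.19 in ICN1, against 11.70, 11.80, 11.67 and 11.88 in TEL-JAK2, without overlap (0.45 ± 0.10, adjusted p = 0.0132). Its other bright probe set gave 0.04 ± 0.10 and was not called, so the call was lost on that probe set and on the mean of its probe sets. Cox6a1 measured 13.72, 13.86 and 13.69 in ICN1, against 13.45, 13.45, 13.43 and 13.39 in TEL-JAK2. These groups did not overlap either, and the difference was 0.33 ± 0.09 (adjusted p = 0.0299) with 0.61 ± 0.12 at its second probe set. The call of Cox6a1 was lost without any one array other than ICN1 replicate 3 (adjusted p up to 0.0921). Cox4i1, the subunit 4 isoform found in most tissues, stood at 0.03 ± 0.08, and Cox5b at 0.22 ± 0.10.

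**Figure D2:**
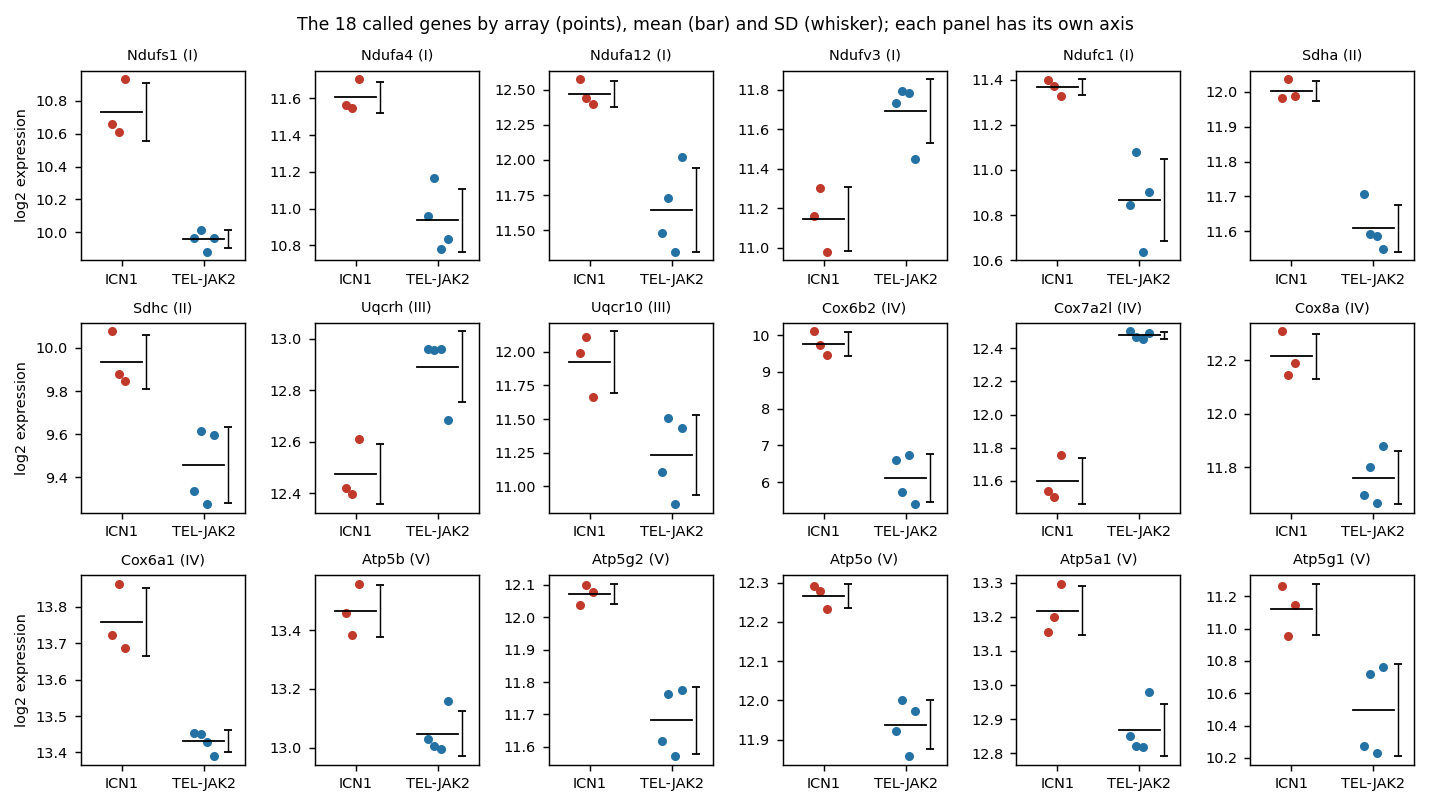
Log2 expression of the 18 called genes in each array, with points for arrays, bars for group means and whiskers for the SD (ICN1 n = 3, TEL-JAK2 n = 4). In Ndufv3, Uqcrh and Cox7a2l the ICN1 points lie below the TEL-JAK2 points, and in the other 15 they lie above, most widely in Cox6b2 (9.76 in ICN1 against 6.12 in TEL-JAK2).

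ATP synthase had 5 of 17 genes called higher in ICN1 (29.4%, against 12.2% of all genes) and 0 lower (against 11.9%). Its median difference was still 0.03. At an unadjusted p under 0.05, limma counted 6 complex V genes higher and 0 lower. The called genes were the alpha and beta subunits of the catalytic head, 2 of 3 genes for the c ring, and Atp5o. Atp5b, the beta subunit that carries the catalytic sites, measured 13.46, 13.38 and 13.56 in ICN1, against 13.03, 13.00, 13.00 and 13.16 in TEL-JAK2. The alpha subunit gene Atp5a1 measured 13.16, 13.20 and 13.30 in ICN1, against 12.85, 12.82, 12.82 and 12.98 in TEL-JAK2. In both genes the groups did not overlap and TEL-JAK2 replicate 4 was the highest of its group. The differences were 0.42 ± 0.09 for Atp5b (adjusted p = 0.015) and 0.35 ± 0.09 for Atp5a1 (adjusted p = 0.0268). A further bright probe set of Atp5a1, at a mean of 12.61, gave 0.14 ± 0.09 and was not called. The other genes of the head, Atp5c1, Atp5d and Atp5e, stood at -0.01 ± 0.09, -0.05 ± 0.08 and 0.03 ± 0.14.

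The c ring, the rotor that the protons turn, is made from 3 genes that encode the same mature protein. Atp5g1 measured 11.26, 10.95 and 11.14 in ICN1, against 10.27, 10.72, 10.23 and 10.76 in TEL-JAK2 (0.62 ± 0.17, adjusted p = 0.0357). Atp5g2 measured 12.04, 12.10 and 12.08 in ICN1, against 11.62, 11.76, 11.57 and 11.78 in TEL-JAK2 (0.39 ± 0.09, adjusted p = 0.0199). Atp5g3 measured 13.29, 13.33 and 13.44 in ICN1, against 13.13, 13.07, 13.05 and 13.13 in TEL-JAK2 (0.26 ± 0.08, adjusted p = 0.0596). All 3 had every ICN1 array above every TEL-JAK2 array, and Atp5g3 missed the threshold. Atp5o, which joins the head to the outer stalk, measured 12.29, 12.28 and 12.23 in ICN1, against 11.92, 11.86 and 11.97 in TEL-JAK2 replicates 1, 3 and 4, with replicate 2 just above these (group mean 11.94). It did not overlap between groups either (0.33 ± 0.08, adjusted p = 0.0256). The other 8 stalk and membrane genes were not called, and on their brightest probe sets they ran from -0.19 ± 0.09 for Atp5mpl to 0.15 ± 0.09 for Atp5j. A further bright probe set of Atp5pb gave -0.42 ± 0.12 and was called lower when probe sets were fitted singly. Further ones of Atp5h and Atp5k gave -0.25 ± 0.09 and 0.44 ± 0.16 and were not called. Of the 5 called genes, Atp5b alone was called without each array in turn. Atp5g2 and Atp5o lost the call on leaving out ICN1 replicate 1 or 2 or either of TEL-JAK2 replicates 1 and 3 (adjusted p up to 0.0607 and 0.0777). Atp5g1 lost it in those cases and without ICN1 replicate 3 (up to 0.113), and its second probe set, dim at a mean of 3.75, gave 0.05 ± 0.14, and Atp5a1 without any one array other than TEL-JAK2 replicate 4 (up to 0.0748).

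The arrays were also compared as wholes, over the 73 members left when the 7 restricted isoforms and Ndufa4l2 were set aside. Their mean level was 11.71, 11.67 and 11.70 in the ICN1 arrays and 11.55, 11.70, 11.50 and 11.59 in the TEL-JAK2 arrays. TEL-JAK2 replicate 2 thus fell among the ICN1 arrays, while the other TEL-JAK2 arrays lay below them. The means were 11.70 ± 0.02 for the 3 ICN1 arrays and 11.59 ± 0.08 for the 4 TEL-JAK2 arrays, each with its SD. Complex II, with 11.26, 11.21 and 11.22 in ICN1 against 10.91, 11.03, 10.82 and 10.97 in TEL-JAK2, was the single complex whose means did not overlap between groups. Within TEL-JAK2, replicate 2 was the highest array in 43 of the 73 genes and replicate 3 the lowest in 41. These are 58.9% and 56.2% of the genes. Over all genes the same arrays were highest in 25.5% and lowest in 24.9%, and over the 1752 other genes in the top 10% of levels in 25.2% and 32.6%. The mean over all 18193 genes was also highest in replicate 2 and lowest in replicate 3, at 6.716, 6.747, 6.705 and 6.723 in TEL-JAK2 replicates 1 to 4. Several lists had the same highest and lowest TEL-JAK2 arrays, and others did not. In TEL-JAK2 replicates 1 to 4, the mitochondrial ribosomal genes averaged 9.49, 9.68, 9.42 and 9.50, and the erythroid markers 5.53, 5.85, 5.44 and 5.47. The granulocyte markers averaged 5.58, 5.73, 5.21 and 5.51, and the dendritic markers 9.46, 9.65, 8.07 and 9.26. The macrophage markers were also lowest in replicate 3 but highest in replicate 4, at 7.18, 8.41, 6.43 and 8.61. Of other lists, the T-lineage genes were highest in replicate 3 and lowest in replicate 4, and the thymic epithelial markers were highest in replicate 4. The B-lineage, complex IV assembly and complex I assembly genes were highest in replicate 2, as the members were. Of these, the B-lineage and complex IV assembly genes were lowest in replicate 4, and the complex I assembly genes in replicate 1. The part of other cells in the order of the TEL-JAK2 arrays was not tested.

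**Figure D3:**
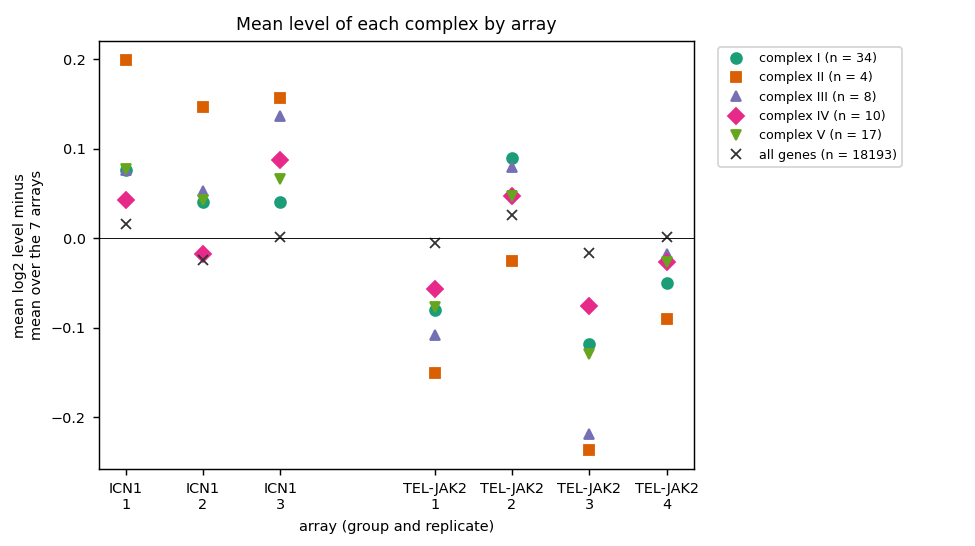
Mean log2 level of each complex in each array, minus its mean over the 7 arrays, with ICN1 arrays on the left and TEL-JAK2 arrays on the right. The legend gives the number of genes, without restricted isoforms and Ndufa4l2, and Ndufa4 is counted with complex I. TEL-JAK2 replicate 2 is the highest and replicate 3 the lowest of the TEL-JAK2 arrays in each complex, and complex II separates the groups.

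Genes that build, feed or regulate the respiratory chain were read from the same fit, in lists beside the subunits. Over all genes, 12.2% were called higher and 11.9% lower. Of 15 complex I assembly factors, 6 were called higher in ICN1 (40%) and 1 lower (6.67%). Ndufaf4, one of these factors, measured 10.20, 10.14 and 10.41 in ICN1, against 9.44, 9.67, 9.39 and 9.66 in TEL-JAK2 (0.71 ± 0.12, adjusted p = 0.00538). Acad9, which has a second role in fatty acid oxidation, differed by 0.73 ± 0.12 and Ndufaf2 by 0.58 ± 0.11, and Ndufaf3 ran the other way (-0.77 ± 0.14). All of these were called without each array in turn. Of 10 assembly factors of complexes II and III, 1 was higher (10%; Sdhaf3, 0.51 ± 0.10) and 2 were lower (20%). Uqcc3, which helps to assemble complex III, measured 9.07, 8.93 and 9.01 in ICN1, against 10.21, 10.14, 10.48 and 10.22 in TEL-JAK2 (-1.26 ± 0.11, adjusted p = 0.000338). These groups lay more than 1 log2 unit apart. Sdhaf2, which attaches the flavin to Sdha, differed by -0.45 ± 0.12 and lost its call without any one array other than ICN1 replicates 1 or 2 (adjusted p up to 0.0752).

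Of 18 complex IV assembly genes, 4 were called higher and 4 lower (22.2% each, against 12.2% and 11.9% of all genes). Without 1 array at a time, 3 to 4 were higher and 1 to 3 lower, since Coa3, Coa4 and Cox17, all lower, lost the call in 5, 5 and 6 of the 7 fits. The lower count was 1 without ICN1 replicate 2 or any one of the first 3 TEL-JAK2 replicates, and 2 without ICN1 replicate 1. Lrpprc, which stabilizes mitochondrial mRNAs, differed by 1.02 ± 0.15, and Coa7 and the copper chaperone Cox11 by 0.84 ± 0.16 and 0.53 ± 0.11. Surf1, the assembly factor mutated in human Leigh syndrome, differed by -0.91 ± 0.14, with 9.61, 9.78 and 9.47 in ICN1 against 10.44, 10.70, 10.71 and 10.27 in TEL-JAK2. These 4 were called without each array in turn. Of 5 assembly and inhibitor genes of ATP synthase, 3 were called higher in ICN1 (60%), and 1 to 2 with any one array left out. Atpif1, the inhibitory factor of ATP synthase, measured 12.05, 11.75 and 11.55 in ICN1, against 10.86, 10.37, 10.23 and 10.41 in TEL-JAK2, with no overlap (1.32 ± 0.18, adjusted p = 0.00252). It is known from zebrafish for a role in heme synthesis of red cells, and the erythroid markers given above were higher in the same 3 arrays; their part in this difference was not tested. Its call was lost with ICN1 replicate 3 alone (adjusted p = 0.0512). Fmc1 (0.64 ± 0.16) and Atpaf2 (0.31 ± 0.09) each lost the call in 6 of the 7 fits that left out an array (adjusted p up to 0.0924 and 0.144).

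Electron carriers and subunits that the symbol rule does not reach had 3 of 6 genes called higher (50%, against 12.2% of all genes). With any one array left out, 1 to 4 were higher. Etfa, a subunit of the electron transfer flavoprotein, differed by 0.73 ± 0.13, Ndufab1, the acyl carrier protein of complex I, by 0.59 ± 0.15, and cytochrome c1, Cyc1, by 0.42 ± 0.11. Etfa was called without each array in turn, whereas Ndufab1 lost its call in 5 and Cyc1 in 6 of the 7 fits (adjusted p up to 0.0946 and 0.0885). Cytochrome c itself, Cycs, stood at 0.55 ± 0.17 (adjusted p = 0.0547). The mitochondrially encoded ND5 differed by 0.09 ± 0.12. Of 12 genes for coenzyme Q synthesis, 5 were higher (41.7%, against 12.2% of all genes) and 0 lower (against 11.9%). At an unadjusted limma p under 0.05, 6 were higher and 2 lower. Coq7, a hydroxylase, led with 9.28, 9.17 and 9.69 in ICN1 against 8.19, 8.12, 7.90 and 8.41 in TEL-JAK2 (1.22 ± 0.17, adjusted p = 0.00239). Coq2, Coq4 and Coq5 differed by 0.63 ± 0.13, 0.73 ± 0.14 and 0.58 ± 0.11.

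Of 17 TCA cycle genes, 9 were called higher (52.9%, against 12.2% of all genes) and 1 lower (5.88%, against 11.9%), with a median of 0.30. The list also held the pyruvate dehydrogenase genes Pdha1, Pdhb, Dlat and Pdhx, which feed the cycle. Of these, Dlat (0.82 ± 0.18) and Pdhx (0.55 ± 0.10) were among the higher genes. Dld, a dehydrogenase shared by several mitochondrial complexes, differed by 1.09 ± 0.13, Suclg2, of succinyl-CoA ligase, by 1.39 ± 0.19, fumarase Fh1 by 0.86 ± 0.15 and citrate synthase Cs by 0.60 ± 0.09. Cs measured 11.74, 11.83 and 11.89 in ICN1, against 11.33, 11.22, 11.10 and 11.24 in TEL-JAK2, without overlap. The lower gene was the mitochondrial isocitrate dehydrogenase Idh2 (-1.10), whose call was lost on leaving out ICN1 replicate 2 or 3 or either of TEL-JAK2 replicates 1 and 2 (adjusted p up to 0.0722). Of 76 mitochondrial ribosomal protein genes, 21 were higher (27.6%) and 3 lower (3.95%). Of 46 cytosolic ones, 2 were higher (4.35%) and 1 lower (2.17%). Among 17 regulators of mitochondrial biogenesis, 5 were higher (29.4%) and 1 lower (5.88%), and without any one array 2 to 3 were higher. Nrf1 (0.46 ± 0.12) lost its call in 4 and Polrmt (0.51 ± 0.14), the mitochondrial RNA polymerase, in 6 of the 7 fits (adjusted p up to 0.0838 and 0.0858). Myc measured 10.86, 10.63 and 11.32 in ICN1, against 9.59, 9.89, 9.39 and 10.26 in TEL-JAK2 (1.16 ± 0.25, adjusted p = 0.0139). Pprc1 (1.08 ± 0.24) and Ppargc1b (0.52 ± 0.13), coactivators of the PGC-1 family, were higher and Esrra, the receptor ERRa, was lower (-0.59 ± 0.14). Pprc1 lost its call without ICN1 replicates 1 or 3, Esrra without ICN1 replicates 1 or 2, and Ppargc1b in 5 of the 7 fits (adjusted p up to 0.0557, 0.0514 and 0.0749).

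**Figure D4:**
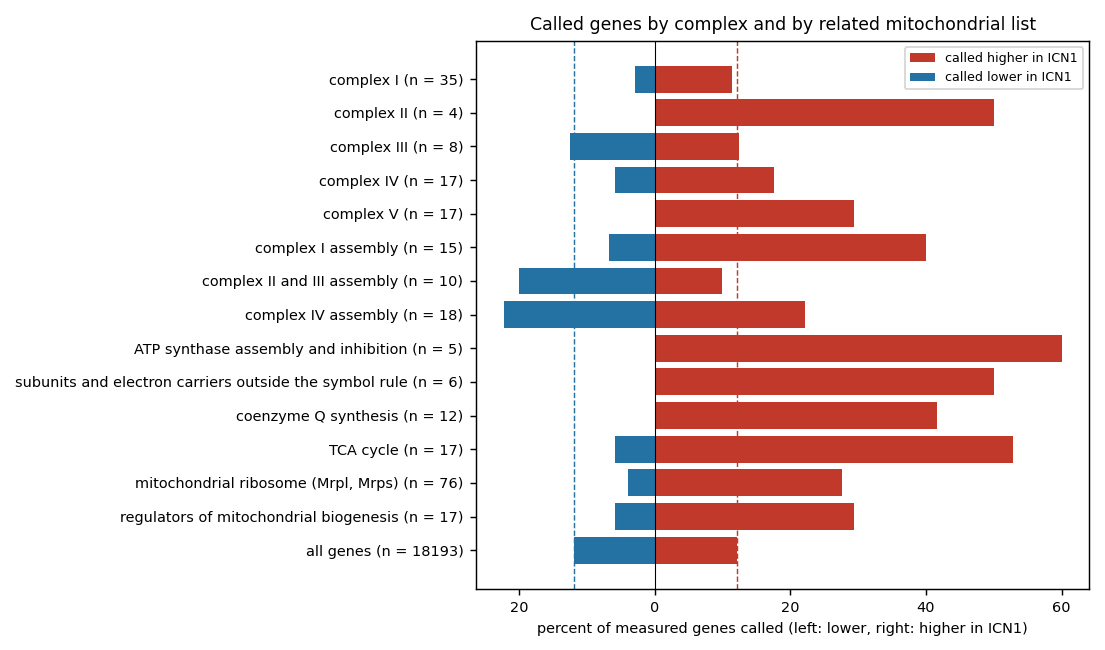
Percent of measured genes called higher (right, red) or lower (left, blue) in ICN1 than in TEL-JAK2, for each complex and each related list, with the number of genes in brackets. Dashed lines mark the share over all genes, 12.2% higher and 11.9% lower. Complex I, with Ndufa4 counted in it, lies near the line for higher genes at 11.4% and far under the line for lower genes at 2.86%. The TCA cycle list, which also holds pyruvate dehydrogenase genes, reaches 52.9% higher.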

How the data were processed

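RNA from 7 leukemic cell suspensions (3 ICN1, 4 TEL-JAK2) was hybridized to Affymetrix mouse arrays, 1 array each. In the table the authors deposited, values are log2 expression per probe set and array, obtained with RMA per the submitters' processing notes, with the version not given in the sources used here. RMA corrects background, draws the arrays to 1 distribution and summarizes probes, so total RNA cannot be compared and folds of dim genes are compressed. Array medians lay between 5.44 and 5.50. Neither detection calls nor scan dates entered the analysis, and the number of arrays limits the precision.

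Probe sets were named through the supplied platform annotation, in which 34945 of 45037 had 1 symbol, 932 several and 9160 none. Of the members, 81 were matched by gene ID in the RefSeq table. Ndufa11 and Ndufs6, which lie only on probe sets with several symbols, and Cox7b were not analysed here. Groups were taken from the genotype label and replicates were numbered in accession order. Nothing states that the samples are separate animals, so p-values reflect spread among these samples.

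The fit used limma 3.58.1 (R 4.3.3, functions lmFit and eBayes without a trend, two-sided, Benjamini-Hochberg over 18193 genes, adjusted p under 0.05). Members and lists were chosen with earlier results of these data known. Named genes were, per complex, up to 8 called genes with the smallest adjusted p, the largest difference in each direction, restricted isoforms and paralogues, c ring genes, the 2 brightest genes and those whose further probe sets read the opposite way. Per list they were up to 4 called genes, or for markers of other cells up to 3 of the brightest. Genes outside the rule, among them Ndufs3, Cox4i1, Cox6b1, Sdhd, Cycs, Idh2, Nrf1, Polrmt, Coa3, Coa4, Cox17 and Atp5pb, were named after their values were seen. Alternatives covered probe set choice, dim genes, scaling, the variance model, the threshold and each array left out. A fit with ICN1 replicate 3 alone was chosen after seeing the data. The main limma fit was tested on simulated data, and the alternative settings were not. Figures used matplotlib 3.10.9.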

Additional observations from a re-analysis of the deposited data

Results flagged for a closer look

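In 4 of the 81 genes (4.94%), 1 of the 4 TEL-JAK2 arrays stood apart from the other 3 by more than the 95% critical value of Dixon's ratio of gap to range, and chance alone gives about 1 in 20 such groups. TEL-JAK2 replicate 2 was the high array for Ndufa2 (11.62), Cox7a2 (13.26) and Atp5e (12.18), none of which was called. TEL-JAK2 replicate 4 was the low array for Uqcrh (12.68), which was called lower in ICN1. The groups of 3 ICN1 arrays were too small for this test.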

How the results depend on the processing

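Cox6b2 was called in every setting that was run. Without probe sets marked s, x or a in their IDs (a marks transcript variants of 1 gene), 65 genes were left, and 6 of the 18 called genes had no value. Of the other 12, 7 were still called in the same direction, while Ndufa12 turned to -0.15 and Uqcr10 to -0.28 on dimmer probe sets. In all 9 genes were then higher, Ndufc2 and Uqcrb among them, and 1 was lower, Atp5pb (-0.42). The medians of complexes II and IV were 0.23 and -0.0223. With probe sets averaged per gene, 5 genes were lower and the complex II median was 0.20. Quantile normalization again, cyclic loess and array weights each gave 5 lower genes. Without dim genes the complex IV median was 0.19. A test against a 1.5-fold difference left 1 higher and 0 lower genes, and an adjusted p under 0.01 left 3 and 1. With ICN1 replicate 3 alone for ICN1, 3 genes were higher and 1 lower, and the medians of all members and of complex IV were both 0.17. With each array left out in turn, 7 to 16 genes were higher and 1 to 4 lower. The medians then ran from 0.0577 to 0.16 over all members, from 0.0221 to 0.15 for complex I, from 0.0506 to 0.16 for complex IV and from -0.0333 to 0.13 for complex V. Of the 18 called genes, 8 were called in all 7 of these fits and 10 lost the call in at least 1. The count of genes called over all genes fell to 1187 with the 1.5-fold test. Cyclic loess ended the calls of Cox6a1, Sdhc and Uqcr10, quantile normalization those of Atp5g1 and Uqcr10, and the mean of probe sets those of Atp5a1, Atp5g1, Atp5g2, Cox8a, Sdha, Uqcr10 and Uqcrh. The cause was not tested. No paired analysis was possible because the labels give the groups no shared replicate numbers.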

Other observations

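Further probe sets allow a second reading of 48 of the 81 genes. Of 83 such probe sets, 73 lay above the median of all values, and 55 of these had the sign of the gene's brightest probe set. The genes with an opposite reading were Atp5d, Atp5j2, Cox7a2, Ndufa12, Ndufa3, Ndufa7, Ndufb2, Ndufb8, Ndufb9, Ndufs4, Ndufs7, Ndufv1, Ndufv2, Sdha and Uqcr10. Probe sets shared with near-copies gave Ndufa11 a level of 11.29 in ICN1 and 11.15 in TEL-JAK2, and Ndufs6 a level of 10.91 in ICN1 and 10.65 in TEL-JAK2.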
